A study of Mus musculus with 32 samples.

Results

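CD8 T cells are the subject here: 379 cells of the stromal vascular fraction of mouse epididymal fat, out of 19564 cells that passed the filter and 22703 barcodes in the deposited matrix. Members were selected on measured transcripts. Each was a barcode with at least 300 genes, at most 10% mitochondrial UMIs (unique molecular identifiers, each standing for 1 captured transcript), at least 2 UMIs over Cd3d, Cd3e and Cd3g and at least 1 over Cd8a and Cd8b1. It had no UMI of Cd4, Foxp3 or Trdc and fewer than 5 over C1qa, C1qb and C1qc. Because these genes chose the members, their levels and the number of members are descriptions. The normal-diet library labelled WT held 51 members, the normal-diet library labelled CD169-DTR 37, the high-fat library labelled WT 223 and the high-fat library labelled CD169-DTR 68.

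CD8 T cells carry an alpha-beta T cell receptor that reads peptides on MHC class I molecules, with CD8 as coreceptor. Naive cells circulate through lymph nodes, guided by the chemokine receptor Ccr7. After activation they turn on granzymes, perforin and chemokines, and some settle in tissue. Fat holds CD8 T cells in lean and obese animals, and granzyme K marks a memory and effector state found in several inflamed tissues.

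The study asked what loss of tissue-resident macrophages does to the other cells of fat. The mice were C57BL/6, either WT or CD169-DTR. They ate normal or high fat diet over 16 weeks, with diphtheria toxin given to all 4 groups for 7 days. The DTR allele places the toxin's receptor under control of Siglec1, the gene of CD169, so that toxin should kill CD169+ cells. The WT mice received the toxin too, so no library is free of it. CD45+ and CD45- cells were sorted apart, with much of the F4/80-high and Ly6C-high cells gated out, and mixed 1:1. A share of all cells therefore follows the sort and the mix. Each group was 1 library on the 10x 3′ v3 chemistry, listed as 8 sequencing runs, and no source used here gives the number of mice behind it. With 1 library a group, no test between diets or labels was possible, and the intervals printed cover counting error only.

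The 4 libraries held 33390225 to 64766718 UMIs and 3624 to 5705 filtered cells, with medians of 6218 to 9202 UMIs a cell. Siglec1 had 5 and 113 UMIs in the filtered cells of the normal-diet libraries labelled WT and DTR, and 51 and 195 in the high-fat ones, so the transcript was higher under the DTR label in both diets. That is opposite to a loss of CD169+ cells. Which library a barcode came from was read from the number at its end, taken as the place of a library in the list used to aggregate them, and nothing else in the files settles this. Every direction between diets and labels rests on it, and the libraries are named by their labels only, as ND-WT, ND-DTR, HFD-WT and HFD-DTR. Among the 22703 barcodes, 298 sequences occurred in more than 1 library, which is 1.33% of the distinct sequences. No sequence was a member in more than 1 library, and 5 of the 379 members (1.32%) had a sequence that was also listed in another library.

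Many members held transcripts of another cell type. A total of 75 of the 379 members passed a minimum of UMIs for antigen-presenting cells (60 members), fibroblasts (13), B cells (11), plasma cells (4) or endothelial cells (4), with some passing several. They were 24 of 51 members (47.1%) in ND-WT, 5 of 37 (13.5%) in ND-DTR, 40 of 223 (17.9%) in HFD-WT and 6 of 68 (8.82%) in HFD-DTR. Their median depth was 13241 UMIs against 2721 in the other 304, and they carried 72.4%, 27.8%, 52.1% and 35.2% of the members' UMIs in that order of libraries. Cd8b1 was detected in 68 of the 75 and in 278 of the 304, and the doublet caller Scrublet marked 6 members, 5 of them among the 75. The minimums were chosen after the data were seen. Results are given for the 304 members without such transcripts and for all 379.

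Among the 304, the defining genes Adgre1 and Mrc1 (macrophage), Xcr1 (dendritic cell), Ms4a1 (B cell) and Mzb1 (plasma cell) had no UMI. Levels are given throughout as CPM, a gene's UMIs in a library per 1000000 UMIs of the same cells. The 7 dendritic and MHC class II markers summed to 79.7 to 309 CPM over the libraries, against 1672 to 19134 in all members. The 6 B cell markers summed to 196 to 344 against 260 to 40371, and the 6 fibroblast markers to 98.0 to 387 against 158 to 9889. The 9 macrophage markers, 3 of them limited by the rule, summed to 49.2 to 126 against 364 to 2969. The NK markers Ncr1, Klrb1c, Klra8 and Eomes together gave 52.8, 279, 181 and 281 CPM, most of it Eomes, which CD8 T cells also express. In such a sum over cells, more cells with a transcript and more transcript per cell cannot be told apart.

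A single member of ND-DTR stood apart within its library. It held 43283 UMIs, 28.7% of all UMIs of that library's 32 members without other-lineage transcripts, and the next largest held 11629. It carried 10 UMIs of Cd8a, 12 of Cd8b1 and 8 of Cd3e, with 14 of Gzmk and 17 of Gzmb. Proliferation genes were high in it, with 25 UMIs of Mki67, 20 of Top2a, 40 of the ribonucleotide reductase subunit Rrm2, 91 of Hmgb2 and 101 of Tuba1b. Scrublet did not mark it. For the main genes, comparisons that use ND-DTR are given with and without this cell.

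The rule required the markers of the label, so their levels describe the members and do not check the label. Cd8b1, the CD8 beta chain that separates conventional CD8 T cells from cells with a CD8 alpha homodimer, stood at 648, 578, 1055 and 836 CPM in ND-WT, ND-DTR, HFD-WT and HFD-DTR among the 304. Cd8a stood at 301, 285, 553 and 464. Cd3e, a chain of the receptor complex, stood at 347, 478, 820 and 597. Members at the edge of the rule resembled those outside it for the CD3 minimum and differed for CD8. The 21 members with exactly 2 Cd3 UMIs had Gzmk in 33.3% and Ccl5 in 66.7%, and the 13 barcodes with 1 such UMI had them in 30.8% and 69.2%. The 68 members with 1 Cd8 UMI had Gzmk in 30.9% and Ccl5 in 72.1%, and the 423 barcodes with none had them in 5.20% and 31.9%.

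CD8 T cells made up 13.6% of Cd3-gated cells in ND-WT (51 of 375, exact Clopper-Pearson 95% interval 10.3 to 17.5), 17.4% in ND-DTR (37 of 213, 12.5 to 23.1), 37.4% in HFD-WT (223 of 597, 33.5 to 41.4) and 23.6% in HFD-DTR (68 of 288, 18.8 to 29.0). HFD-WT stood above the other 3 libraries, with an interval that met none of theirs. Without barcodes that held other-lineage transcripts the shares were 9.75% (27 of 277), 17.4% (32 of 184), 38.2% (183 of 479) and 24.0% (62 of 258). Of cells with a Ptprc (CD45) UMI, CD8 T cells were 1.91%, 1.84%, 8.05% and 2.56%. Trdc-detected gamma-delta T cells numbered 142, 72, 110 and 99, which is 37.9%, 33.8%, 18.4% and 34.4% of Cd3-gated cells. Their share and that of CD8 T cells are parts of 1 total and cannot move freely of each other. The median depth of Cd3-gated cells was 4407, 3202, 3443 and 1688 UMIs, and the gate reads a CD8 UMI more easily in deep cells. With each cell thinned to 1500 UMIs before the gate, the shares were 6.56%, 16.3%, 34.9% and 23.5%, in the same order of libraries. The part of the sort in these shares was not tested. The plot of shares and numbers shows the 4 libraries with and without the other-lineage barcodes.

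**Figure D1:**
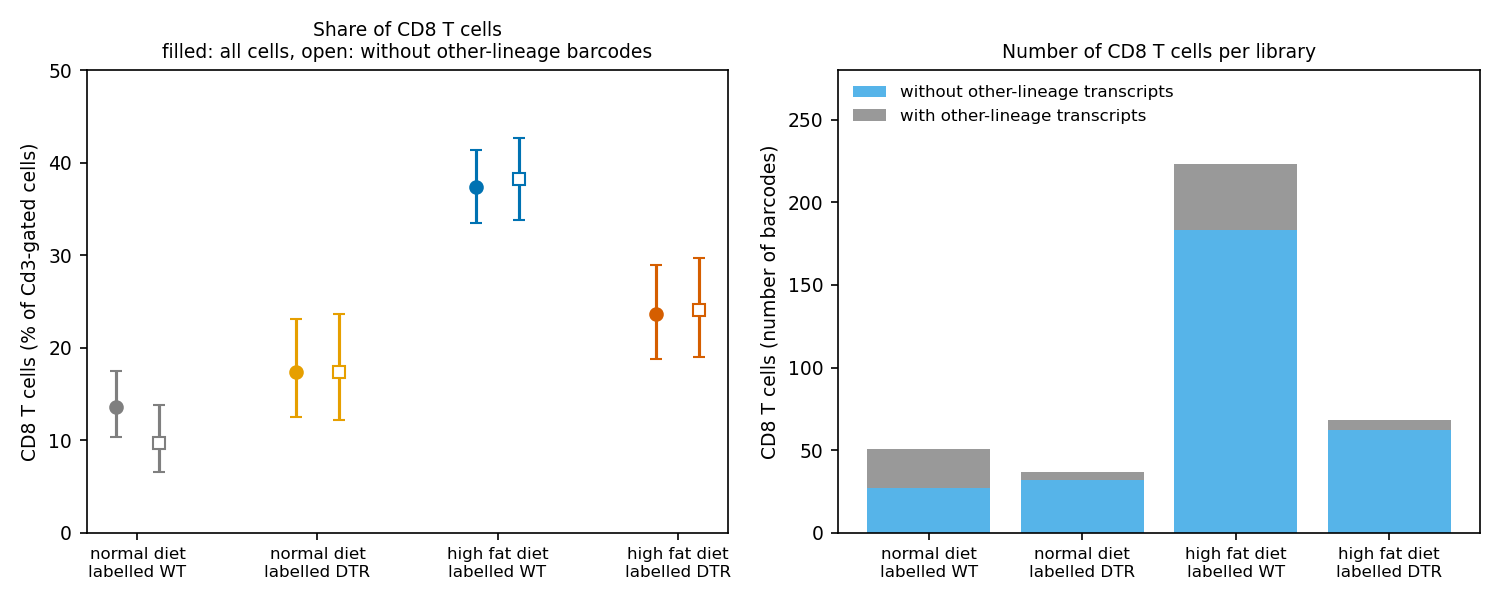
CD8 T cells in the 4 libraries. Left, percent of Cd3-gated cells that were CD8 T cells, with exact 95% intervals (filled, all cells; open, without barcodes holding other-lineage transcripts); right, number of CD8 T cells, stacked by the absence or presence of such transcripts. HFD-WT is highest at 37.4% and 223 cells, and ND-WT has the largest part of members with other-lineage transcripts, 24 of 51.

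Ccl5 and Nkg7 were detected in most of the 304 members, and Gzmk in 144 of them. Gzmk (chromosome 13, 113171608 to 113225908, minus strand, GRCm38) encodes granzyme K, a secreted trypsin-like protease. It was detected in 5 of 27 members in ND-WT (18.5%), 14 of 32 in ND-DTR (43.8%), 96 of 183 in HFD-WT (52.5%) and 29 of 62 in HFD-DTR (46.8%). With each cell thinned to 1500 UMIs, leaving out 9 members of HFD-WT and 16 of HFD-DTR, the shares were 3.70%, 31.3%, 37.4% and 37.0%. ND-WT was lowest on either scale. None of 778 B cells (median 5466 UMIs) had a Gzmk UMI, which allows up to 0.386% of B cells with one, with 3 cells as the floor, and 3 of 6741 fibroblasts did (0.0445%, median 11648 UMIs). Of 568 NK cells, 0.880% had it, and of 111 conventional CD4 T cells (median 3116 UMIs), 11.7%.

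Ccl5, a chemokine of memory T cells (chromosome 11, 83525778 to 83530518, minus strand), was detected in 48.1% of members in ND-WT, 81.3% in ND-DTR, 85.2% in HFD-WT and 85.5% in HFD-DTR. B cells had it in 8.74% and fibroblasts in 6.87%. The granule protein gene Nkg7 was detected in 74.1%, 84.4%, 92.9% and 88.7% of members, against 2.44% of B cells. Gzma, the other granzyme often found in cytotoxic cells, was rare, at 7.41%, 12.5%, 3.83% and 6.45%. Ccl5 and Nkg7 thus stood far above their shares in B cells in every library, and Gzma marked few members.

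Pdcd1 encodes the inhibitory receptor PD-1, and Tox a factor that sustains PD-1 in chronically stimulated cells. Pdcd1 was detected in 18.5%, 40.6%, 56.8% and 38.7% of members, against 0.514% of B cells and 0.148% of fibroblasts. Tox was detected in 29.6%, 34.4%, 52.5% and 27.4%, and in 2.20% of fibroblasts. Cxcr6, a chemokine receptor of tissue-resident T cells, was detected in 18.5%, 21.9%, 42.1% and 12.9%, and after thinning in 7.41%, 15.6%, 28.7% and 4.35%. HFD-WT was highest for each of these genes, and for Cxcr6 the other high-fat library was lowest.

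Genes of naive and recirculating cells ran the other way. Lef1, a transcription factor of naive T cells, was detected in 59.3% of members in ND-WT, 28.1% in ND-DTR, 22.95% in HFD-WT and 25.8% in HFD-DTR. Ccr7 was detected in 48.1%, 28.1%, 16.9% and 12.9%, and S1pr1, the receptor that leads T cells out of tissue, in 48.1%, 21.9%, 13.7% and 14.5%. Il7r, the interleukin-7 receptor chain of resting T cells, was detected in 63.0%, 31.3%, 16.9% and 35.5%. ND-WT was highest for all 4, and its members were also the deepest, at a median of 4385 UMIs against 2794, 2774 and 2112. After thinning, Il7r was again lowest in HFD-WT, at 10.3%, and was 29.6%, 18.8% and 41.3% in ND-WT, ND-DTR and HFD-DTR, so that HFD-DTR was then highest. Ccr7 does not separate T from B cells, since 59.3% of B cells had it.

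**Figure D2:**
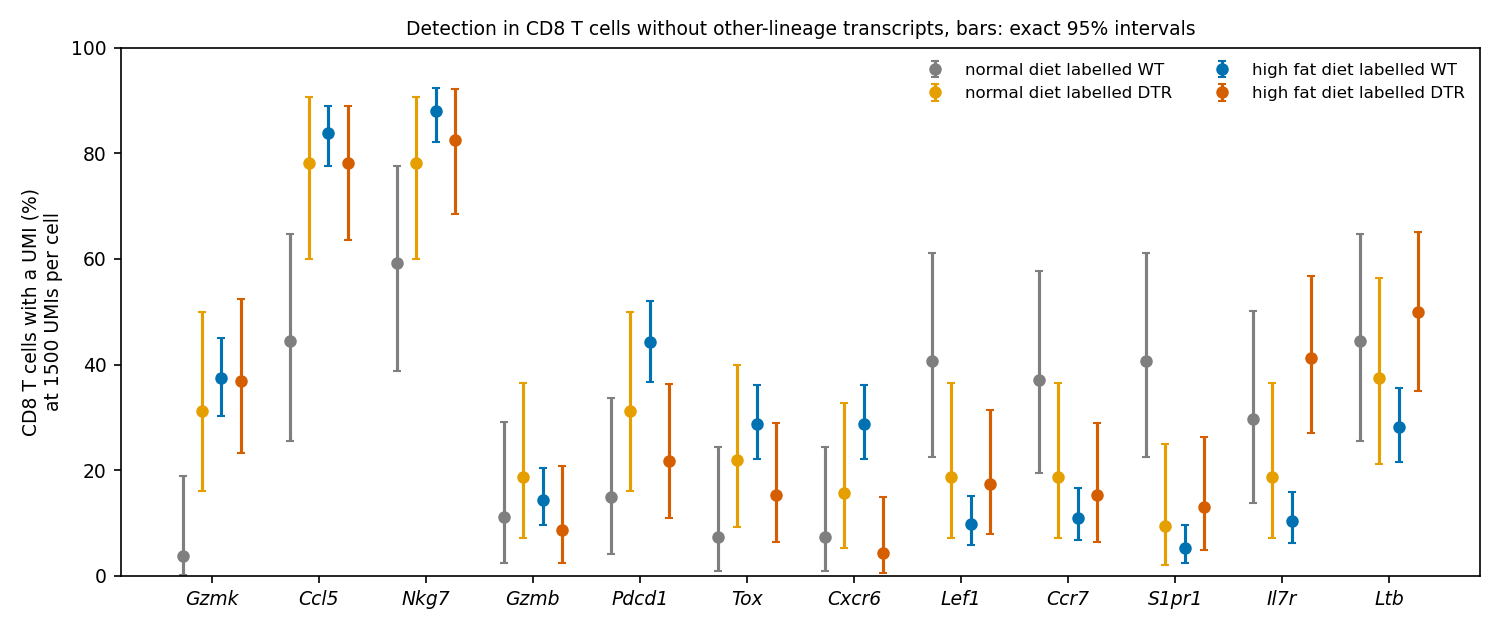
Percent of CD8 T cells with at least 1 UMI of each of 12 genes after thinning to 1500 UMIs a cell, in each library, over members without other-lineage transcripts, with exact 95% intervals. Gzmk, Ccl5, Pdcd1 and Cxcr6 are detected more often in HFD-WT than in ND-WT (Gzmk 37.4% against 3.70%), and Lef1 and Ccr7 less often.

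Several effector genes were detected more often in members with Gzmk than in those without, given here with no test. Ccl5 was detected in 144 of 144 members with Gzmk and in 65.0% of the others. Eomes, a transcription factor of memory CD8 T cells, was in 44.4% against 21.3%, and Gzmb, the granzyme that activates caspases in target cells, in 28.5% against 11.9%. Gzma was as rare in members with Gzmk (5.56%) as in the others (5.63%). Its UMIs came from few cells: 64, 63, 14 and 12 UMIs in 2, 4, 7 and 4 members of ND-WT, ND-DTR, HFD-WT and HFD-DTR, with 43 of the 64 in 1 cell of ND-WT. Pdcd1 was in 61.8% against 35.6% over the 4 libraries, in 70.8% against 41.4% in HFD-WT, and in 37.9% against 39.4% in HFD-DTR. These shares are descriptions over cells of 4 libraries, and a deep cell is more likely to show any pair of genes.

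The next comparisons ask how CD8 T cells of the high fat diet differed from those of the normal diet under each label. Under the WT label, effector, checkpoint and residence genes were higher in the high-fat library and genes of naive cells were lower. Gzmk stood at 301 CPM in HFD-WT against 52.8 in ND-WT among the 304, a log2 ratio of 2.51 (95% counting interval 1.44 to 3.85). Over all members it was 176 against 60.3, a log2 ratio of 1.55 (0.98 to 2.16). A 2-fold difference is a log2 ratio of 1, and the counts over lists take only genes with 50 UMIs over the libraries compared.

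Ccl5 stood at 16818 against 5094 CPM (log2 ratio 1.72, 1.61 to 1.84) and Nkg7 at 3387 against 1115 (1.60, 1.36 to 1.85). Prf1, which forms the pore that admits granzymes, stood at 80.9 against 22.6 from 50 and 3 UMIs (1.84, 0.21 to 4.17). The chemokine Ccl3 stood at 126 against 15.1, but over all members at 68.2 against 62.4, a log2 ratio of 0.13. Ccl4, a related chemokine, was higher without other-lineage members (384 against 188, log2 ratio 1.03) and lower over all members (258 against 374, log2 ratio -0.54), and 24 of its 25 UMIs in ND-WT came from 1 cell. Gzma went against the rest of the group, at 22.7 against 482, a log2 ratio of -4.41 (-5.36 to -3.56), from the few cells described above.

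Of the 15 cytotoxic genes, 12 could be counted in the 304. Among them 8 were 2-fold higher in HFD-WT and 1 lower, with a median log2 ratio of 1.35 against 0.25 over all 2018 genes, of which 12.6% were 2-fold higher and 1.44% lower. Over all members 14 could be counted, 5 higher and 1 lower, with a median of 0.79 against 0.15 over 4463 genes, of which 5.98% were higher and 1.68% lower.

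Checkpoint genes were also higher in HFD-WT. Pdcd1 stood at 442 against 106 CPM (log2 ratio 2.07, 1.29 to 2.96; over all members 2.09, 1.54 to 2.69). Tox stood at 272 against 90.4 (1.59, 0.75 to 2.57; over all members 1.63), and Maf, a transcription factor tied to interleukin-10 and inhibitory receptors, at 217 against 52.8 (2.04, 0.96 to 3.38; over all members 1.44). Havcr2, which encodes the inhibitory receptor TIM-3, had 27 UMIs in HFD-WT and none in ND-WT or ND-DTR, with 1 in HFD-DTR, and over all members its log2 ratio was 0.46. Of the 15 checkpoint genes, 8 could be counted in the 304 and 6 were 2-fold higher, with a median of 1.47, and over all members 4 of 10 were higher, with a median of 0.56. None was 2-fold lower in either set. Of all genes, 12.6% were 2-fold higher in the 304 and 5.98% over all members.

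Of the 11 residence genes, 7 could be counted in the 304 and 4 were 2-fold higher, with a median of 1.17, where 12.6% of all genes were. Over all members 2 of 8 were higher, with a median of 0.57, where 5.98% of all genes were. Cxcr6 stood at 251 against 106 CPM (log2 ratio 1.25, 0.46 to 2.15; over all members 1.46). Bhlhe40, a transcription factor of resident T cells, stood at 197 against 52.8 (1.90, 0.82 to 3.25; over all members 1.06), and Runx3, which keeps CD8 expression on and CD4 off, at 397 against 166 (1.26, 0.63 to 1.96; over all members 0.97). Itgae, the integrin chain CD103 of epithelial resident cells, had only 2, 2, 4 and 0 UMIs in the 4 libraries. Cxcr3, a receptor for interferon-induced chemokines, stood at 133 against 30.1 (2.14, 0.73 to 4.05).

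Genes of naive cells were lower in HFD-WT among the 304. Ccr7 stood at 207 against 467 CPM (log2 ratio -1.17, -1.62 to -0.71), S1pr1 at 55.02 against 181 (-1.72, -2.51 to -0.90), Il7r at 121 against 256 (-1.08, -1.68 to -0.45) and Igfbp4, a binding protein of insulin-like growth factors that naive CD8 T cells express, at 38.8 against 204 (-2.39, -3.25 to -1.54). Of the 11 genes of the list 9 could be counted, 4 were 2-fold lower and none higher, with a median of -0.97. Of all genes 1.44% were 2-fold lower and 12.6% higher. Over all members 11 could be counted and none was 2-fold lower, with a median of -0.21, and Ccr7 was then at -0.14 and Igfbp4 at 0.34. The difference in naive genes was thus smaller, or absent, with the other-lineage members included.

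Of the 14 MHC class I presentation genes, 13 could be counted in the 304 and 5 were 2-fold higher, with a median of 0.66, where 12.6% of all genes were higher. Over all members none of 14 was, with a median of 0.38, where 5.98% of all genes were. H2-K1, a class I heavy chain, stood at 5429 against 3142 CPM (log2 ratio 0.79, 0.64 to 0.94), and Tap1, a subunit of the peptide transporter, at 194 against 67.8 (1.52, 0.54 to 2.68). The proliferation-linked gene Stmn1 stood at 238 against 60.3 (1.98, 0.96 to 3.22). Of 17 cell cycle genes, 4 of 7 counted in the 304 were 2-fold higher, and 2 of 13 over all members, against the same 12.6% and 5.98%. Scaling every cell to the same total, which weights shallow cells equally with deep ones, gave 371 genes 2-fold higher and 272 lower over all members, against 267 and 75 in the sums.

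Under the DTR label, Gzmk, Pdcd1 and Ccl5 had ratios under 2-fold between diets, and Gzmb and Gzma were lower past 2-fold in the high-fat library. Whether the diet ratios differed between labels was not tested. Gzmk stood at 365 CPM in HFD-DTR and 252 in ND-DTR (log2 ratio 0.53, -0.10 to 1.18), and the ratio was 0.37 over all members. Pdcd1 stood at 302 against 219 (0.46, -0.22 to 1.16), and its ratio was -0.02 without the large ND-DTR member. Ccl5 stood at 11987 against 10960 (0.13, 0.03 to 0.23), with a ratio of -0.36 without that member. Gzmb stood at 77.3 against 252 (-1.71, -2.82 to -0.71), with a ratio of -1.34 without the large member and -1.77 over all members.

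Ltb, a membrane cytokine of lymphoid tissue, was higher in HFD-DTR than in ND-DTR, at 864 against 332 CPM (1.38, 0.90 to 1.89), with a ratio of 1.01 without the large member. Tnfrsf18, the costimulatory receptor GITR, stood at 351 against 92.9 (1.92, 1.04 to 2.89), with a ratio of 1.65 without that member. Il7r, lower with the high fat diet under WT, was at 351 against 192 under DTR (0.87, 0.18 to 1.58), with a ratio of 0.48 without the large member. Among the 304, Gzmb had under 50 UMIs over these libraries and is not in the counts. Of the cytotoxic list 7 could be counted in the 304 and none was 2-fold higher, where 1.46% of 753 genes were. Among the 7, Gzma was 2-fold lower, at 84.3 against 418 CPM (-2.31, -3.34 to -1.41), where 4.65% of genes were lower. Its UMIs came from only 4 members in each of these libraries, which the counting interval does not take into account. Over all members 8 could be counted, none higher and 2 lower, where 8.28% of 1232 genes were higher and 4.06% lower. Of 3 checkpoint genes counted in either set none passed 2-fold. Cell cycle genes were lower, 3 of 5 past 2-fold with a median of -1.16, and this rested on the large member: Hmgb2 stood at 351 against 836 with it (-1.25) and at 351 against 326 without it (0.11).

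Under both labels together, the naive list was lower with the high fat diet for 6 of its 11 genes and higher for none among the 304, where 18.4% of all 5427 genes with 20 UMIs were lower under both. Without the large member it was 8 of 11 against 17.5%. Checkpoint genes were higher under both labels for 7 of 12, where 32.1% of all genes were, and for 7 of 12 without the large member against 33.9%. Cytotoxic genes were higher under both for 9 of 13, but for 5 of 13 without the large member. Over all members, 8 of 13 checkpoint and 7 of 15 cytotoxic genes were higher under both labels, where 33.6% of 8055 genes were, and of 11 naive genes 2 were higher and 4 lower under both, where 18.7% of all genes were lower. Cell cycle genes were higher under both labels for 2 of 16 and lower for 1 among the 304, where 32.1% and 18.4% of all genes were. Without the large member 14 of 15 were higher and none lower, where 33.9% and 17.5% of all genes were. Over all members 1 of 17 was higher and 5 lower, where 33.6% and 18.7% of all genes were. These counts use the direction of a ratio and not its size.

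**Figure D3:**
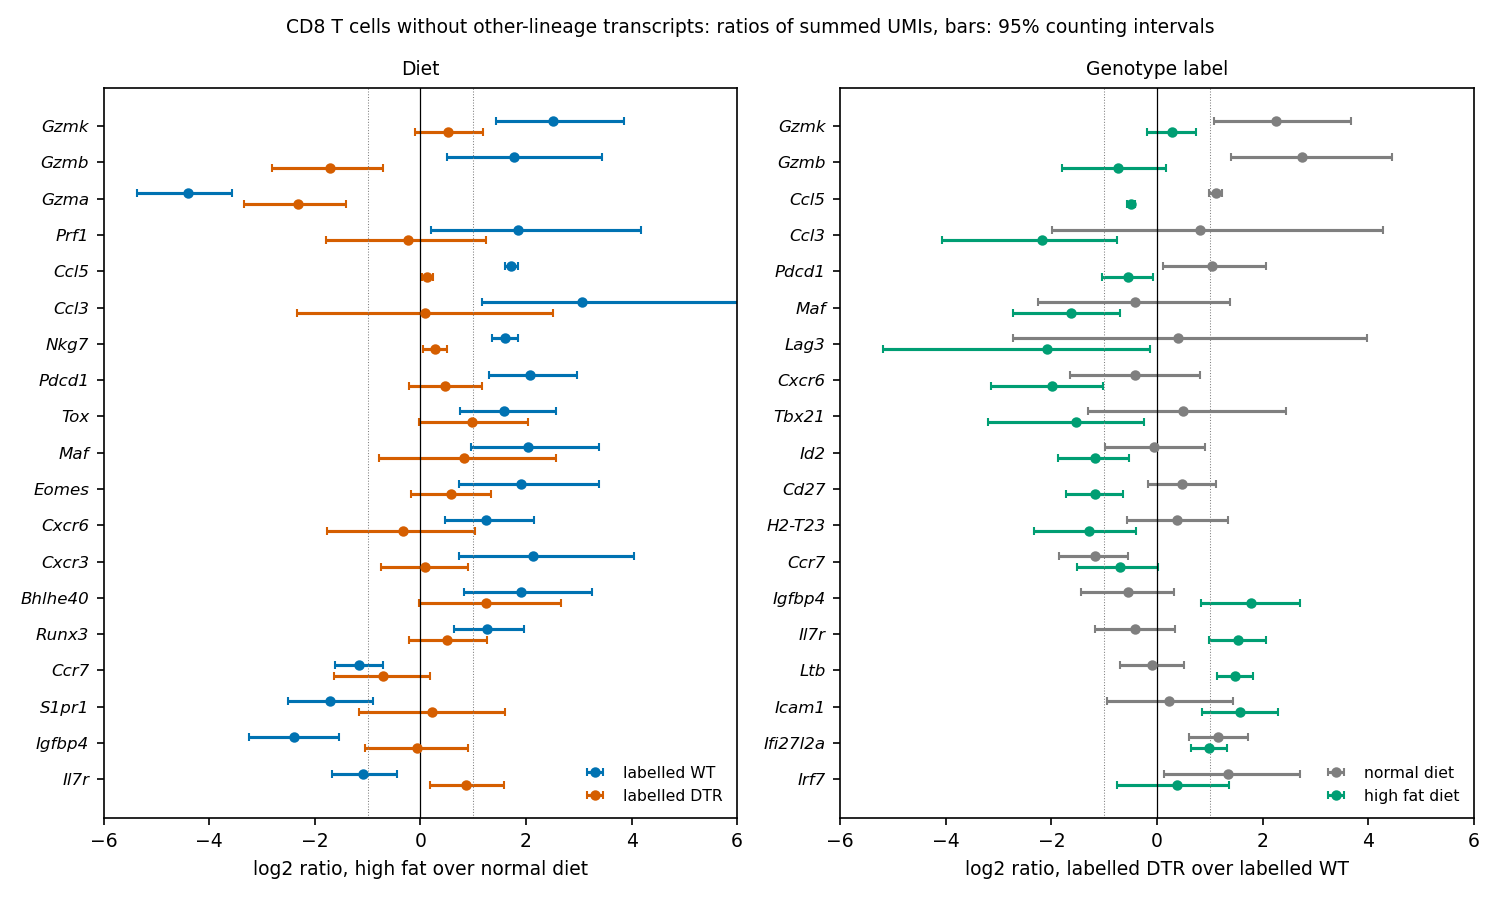
Log2 ratios of CPM over members without other-lineage transcripts, with 95% counting intervals. Left, high fat over normal diet under each label; right, label DTR over label WT in each diet; dotted lines mark 2-fold. Gzmk and Pdcd1 exceed 2-fold with diet under the WT label (2.51 and 2.07) and not under the DTR label (0.53 and 0.46), and Il7r and Ltb exceed 2-fold between labels in the high fat diet (1.53 and 1.48). The upper end of the Ccl3 interval runs past the axis.

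The next pair of comparisons asks how CD8 T cells of libraries labelled DTR differed from those labelled WT within a diet. They share libraries with the diet comparisons, so the values stand side by side and are not separate evidence. In the high fat diet, Il7r, Ltb and Igfbp4 were higher under the DTR label, and Cxcr6, Maf, Ccl3 and Tbx21 were lower. Il7r stood at 351 CPM in HFD-DTR against 121 in HFD-WT (log2 ratio 1.53, 0.99 to 2.07; over all members 1.37). Ltb stood at 864 against 311 (1.48, 1.14 to 1.81; over all members 1.58) and Igfbp4 at 134 against 38.8 (1.78, 0.83 to 2.71; over all members 1.10). Ccr7 did not share this order, at 127 against 207 (-0.71, -1.51 to 0.01; over all members -1.33).

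Cxcr6 stood at 63.2 in HFD-DTR against 251 CPM in HFD-WT (log2 ratio -1.99, -3.14 to -1.03; over all members -1.12). Maf stood at 70.3 against 217 (-1.63, -2.72 to -0.70; over all members -0.65), Ccl3 at 28.1 against 126 (-2.17, -4.08 to -0.75; over all members -1.10) and Tbx21, the T-bet transcription factor of effector cells, at 35.1 against 102 (-1.54, -3.21 to -0.24; over all members -1.22). Lag3, an inhibitory receptor for MHC class II, had 2 UMIs against 37 (-2.09, -5.19 to -0.14). Cd27, a costimulatory receptor, stood at 232 against 521 (-1.17, -1.73 to -0.65; over all members -0.89). Gzmk was close between the labels, at 365 against 301 (0.28, -0.19 to 0.73), and Pdcd1 stood at 302 against 442 (-0.55, -1.05 to -0.08).

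Counted over lists in the high fat diet, 1 of 7 naive genes in the 304 was 2-fold higher and none lower (median 0.25), where 1.2% of 2087 genes were higher and 4.55% lower (median -0.06). Of 11 cytotoxic genes none was higher and 1 lower (median -0.49), of 8 checkpoint genes none and 1 (median -0.55), and of 7 residence genes none and 1 (median -0.53). Over all members, 2 of 11 naive genes were higher and 1 lower, where 4.32% of 4120 genes were higher and 6.7% lower. None of 13 cytotoxic genes was then higher and 1 was lower, none of 11 checkpoint genes higher and 2 lower, and none of 8 residence genes higher and 2 lower. TMM scaling moved the all-member ratios of this comparison by 0.22 and those of the normal diet by 0.23 on the log2 scale. With it 103 genes were 2-fold higher and 396 lower in the high fat diet, against 178 and 276, and 49 and 214 in the normal diet, against 102 and 160. The all-member median of interferon genes was 0.86 in the normal and 0.51 in the high fat diet in the sums, and 0.63 and 0.29 with TMM.

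In the normal diet, Gzmk, Gzmb, Ccl5 and Pdcd1 were higher under the DTR label. Gzmk stood at 252 CPM in ND-DTR against 52.8 in ND-WT (log2 ratio 2.26, 1.08 to 3.67), at 224 (2.08, 0.83 to 3.54) without the large member, and its ratio was 1.74 over all members. Gzmb stood at 252 against 37.7 (2.74, 1.40 to 4.45), with ratios of 2.38 without the large member and 2.49 over all members. Ccl5 stood at 10960 against 5094 (1.11, 0.98 to 1.24; without the large member 1.59), and Pdcd1 at 219 against 106 (1.05, 0.11 to 2.07; without it 1.54). Serpinb9, an inhibitor that shields cytotoxic cells from granzyme B, stood at 305 against 45.2 (2.76, 1.52 to 4.27; without it 3.01). Fabp4, a lipid carrier of adipocytes, macrophages and endothelial cells, was lower, at 39.8 against 610, but 80 of its 81 UMIs in ND-WT came from 1 cell.

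Few list genes could be counted in this smallest comparison. Among the 304, Gzmk, Gzmb and Pdcd1 had under 50 UMIs over these libraries and are not in the counts. Of 5 cytotoxic genes 1 was 2-fold higher and none lower (median 0.47), where 7.6% of 671 genes were higher and 1.79% lower (median 0.14). Over all members 5 of 9 were higher and 1 lower (median 1.03), where 5.55% of 1838 genes were higher and 8.71% lower (median 0.12). Of the naive list, none of 5 in the 304 was higher and 1 lower, and over all members none of 6 passed in either direction. The number of genes 2-fold higher among the 304 was 51 with the large member and 21 without it. Tuba1b went from 2.75 with that member to 0.70 without it, and Hmgb2 from 1.89 to 0.53.

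Genes of the immediate early response moved with the other-lineage barcodes. Over all members, the transcription factor gene Jun stood at 462, 101, 453 and 1034 CPM in ND-WT, ND-DTR, HFD-WT and HFD-DTR, and among the 304 at 143, 92.9, 85.8 and 127. Egr1, another early transcription factor gene, stood at 366, 71.9, 261 and 615 over all members. Of 14 immediate early and stress genes counted between the DTR libraries over all members, 9 were 2-fold higher in the high fat diet and 1 lower. Their median was 1.56, where 8.28% of 1232 genes were higher and 4.06% lower. Among the 304, 1 of 9 was higher and 1 lower, with a median of 0.06. There 1.46% of 753 genes were higher and 4.65% lower. Igkc, the immunoglobulin kappa chain of B and plasma cells, stood at 31415, 383, 14437 and 191 over all members and at 113, 153, 228 and 246 among the 304.

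Interferon response genes were higher under the DTR label in both diets for most of the list. These genes are switched on by interferons, and many encode antiviral proteins. Ifi27l2a (chromosome 12, 103442167 to 103443680, minus strand), an interferon-induced gene of the mitochondrial and nuclear membrane protein family ISG12, stood at 301 CPM in ND-WT, 671 in ND-DTR, 385 in HFD-WT and 766 in HFD-DTR among the 304. The log2 ratio of the DTR over the WT label was 1.15 in the normal diet (0.61 to 1.72) and 0.99 in the high fat diet (0.65 to 1.32). Without the large member the normal-diet ratio was 1.64 (1.10 to 2.21). Over all members the levels were 260, 594, 285 and 688. Both libraries labelled DTR lay above both labelled WT.

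Bst2, which tethers budding virus to the cell, stood at 106, 179, 121 and 225 CPM, and Isg15, a ubiquitin-like modifier, at 67.8, 120, 80.9 and 162. Ifit3, an antiviral protein gene, had 0, 14, 10 and 11 UMIs. It was at least 4.11-fold higher in ND-DTR than in ND-WT, and at least 5.77-fold without the large member, with 3 UMIs as the floor for the library at 0, and 2.26 higher on the log2 scale in HFD-DTR than in HFD-WT. Of its 14 UMIs in ND-DTR, 11 came from 1 cell. Irf7, the factor that amplifies interferon production, stood at 60.3, 153, 59.9 and 77.3, with a log2 ratio of 1.34 (0.13 to 2.71; without the large member 1.83) in the normal diet and 0.37 (-0.75 to 1.37) in the high fat diet. Rtp4, a further interferon-induced gene, stood at 15.1, 79.7, 17.8 and 21.1, from 2, 12, 11 and 3 UMIs, with a log2 ratio of 2.40 in the normal diet and of 2.89 without the large member.

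The 32 interferon genes summed to 1718 CPM in ND-WT (Poisson 95% interval 1502 to 1956), 2961 in ND-DTR (2692 to 3249), 2037 in HFD-WT (1926 to 2153) and 3225 in HFD-DTR (2937 to 3534). Without the large member the ND-DTR sum was 3987. Over all members the sums were 2027, 3219, 1846 and 2952. Of 26 genes with 20 UMIs over the libraries, 18 were higher under the DTR label in both diets and none lower in both, where 30% of all genes were higher in both. Without the large member 21 of 26 were higher in both and none lower (28.2% and 20.4% of all genes), and over all members 21 of 30 higher and 3 lower (31.7% of all genes higher). With 50 UMIs, none of 12 interferon genes in the 304 was 2-fold higher or lower in the high fat diet, where 1.2% of all genes were higher. Over all members 3 of 15 were higher there and 1 lower, where 4.32% of all genes were higher and 6.7% lower. In the normal diet 1 of 2 was higher in the 304, where 7.6% of all genes were, and 3 of 9 over all members, where 5.55% were. None was 2-fold lower in the normal diet. In conventional CD4 T cells without other-lineage transcripts, Ifi27l2a stood at 879, 1448, 392 and 957 CPM, also higher under the DTR label in each diet. It was detected in 63.9%, 68.75%, 48.0% and 67.4% of B cells and in 1.8%, 4.3%, 1.2% and 12.5% of NK cells. Isg15 was detected in 17.4%, 20%, 9.1% and 23.6% of B cells. In NK cells Isg15 was not higher under the DTR label, at 25.4%, 25%, 13.6% and 11.5%. Of the NK-type receptor genes in CD8 T cells, 7 of 8 in the 304 were higher under the DTR label in both diets and none lower. There 30% of all genes were higher and 18.8% lower. Over all members 3 of 9 were higher and 3 lower, where 31.7% and 21.5% of all genes were, so the list had no direction there.

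**Figure D4:**
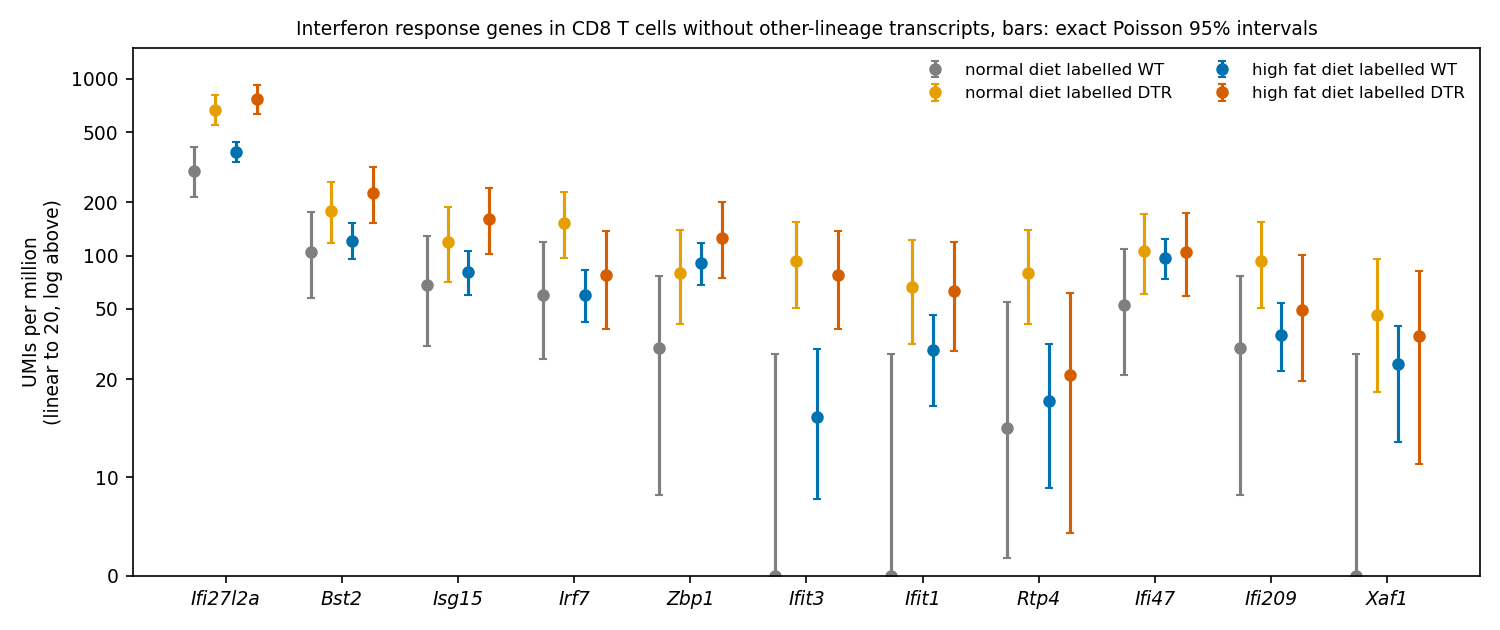
CPM of 11 interferon response genes in CD8 T cells of the 4 libraries, over members without other-lineage transcripts, with Poisson 95% intervals; the axis is linear up to 20 and logarithmic above. Ifi27l2a, Bst2 and Isg15 are higher in both libraries labelled DTR than in both labelled WT, and Ifit3 has no UMI in ND-WT.

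The promoters of the listed genes were read for the interferon-stimulated response element, as a description of the list. RefSeq windows of 300 bases on GRCm38.p6, from 250 bases before to 50 after a start, were searched for GAAANNGAAA on either strand. It was in 14 of 26 matched genes of the list (53.8%) and in 1079 of 27025 genes overall (3.99%). The list was assembled as interferon response genes and was searched whatever their levels here. A higher share than over all genes thus follows from the choice of list and says nothing about the labels. The 250 upstream bases of 4 of the genes are given, 3 with the motif and Irf7 without it, 5′ to 3′ on the strand of the gene, with matches in capitals (TTTCNNTTTC is the motif on the other strand). They lie at chr19:34583279-34583528 (Ifit3, plus), chr4:156200819-156201068 (Isg15, minus), chr8:71537473-71537722 (Bst2, minus) and chr7:141266425-141266674 (Irf7, minus).
Ifit3: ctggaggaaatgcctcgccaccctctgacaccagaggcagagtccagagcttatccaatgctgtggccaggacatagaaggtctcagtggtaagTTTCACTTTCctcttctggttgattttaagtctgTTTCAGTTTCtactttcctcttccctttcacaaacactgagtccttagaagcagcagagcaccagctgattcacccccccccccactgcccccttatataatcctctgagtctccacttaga
Isg15: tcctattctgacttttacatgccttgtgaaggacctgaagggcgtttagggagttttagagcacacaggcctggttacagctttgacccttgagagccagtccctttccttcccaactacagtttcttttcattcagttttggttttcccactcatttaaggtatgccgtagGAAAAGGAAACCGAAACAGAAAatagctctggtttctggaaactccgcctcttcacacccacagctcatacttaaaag
Bst2: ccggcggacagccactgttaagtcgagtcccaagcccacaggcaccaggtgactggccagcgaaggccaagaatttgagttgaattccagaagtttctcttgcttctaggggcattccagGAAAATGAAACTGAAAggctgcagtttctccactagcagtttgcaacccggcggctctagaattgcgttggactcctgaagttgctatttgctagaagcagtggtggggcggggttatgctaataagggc
Irf7: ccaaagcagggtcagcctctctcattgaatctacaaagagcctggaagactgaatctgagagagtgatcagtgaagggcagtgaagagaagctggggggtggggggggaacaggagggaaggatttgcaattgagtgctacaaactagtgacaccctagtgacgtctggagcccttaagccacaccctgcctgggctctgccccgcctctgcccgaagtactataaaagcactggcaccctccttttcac
Ifit3 had 2 matches, starting at bases 95 and 129 of the window, Isg15 had 3 overlapping ones from base 173, and Bst2 had 2 overlapping ones from base 121. A match is a description of the letters and not a measured site, and the absence of one in Irf7 says only that these letters are not in this window.

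CD8 T cells were then compared with conventional CD4 T cells and with NK cells in genes that the gates did not use. Here the libraries serve as replicates of a cell type contrast although they are 4 conditions, and each library is a block, since both cell types come from it. No source used here says which animals the libraries came from. The p-values measure only how the difference between the cell types varied over these libraries. The CD4 gate held 165 cells (54, 27, 65 and 19), and the library with 19, HFD-DTR, stayed out of the main test for having under 20.

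Against CD4 T cells, cytotoxic genes were higher in CD8 T cells. Gzmk averaged 146 CPM against 24.9 over 3 libraries, a log2 fold change of 2.43 ± 0.33 (SE), higher in 3 of 3 libraries, with an adjusted p of 0.00759 in edgeR's quasi-likelihood test with Benjamini-Hochberg adjustment. Over 11 alternatives its fold change ran from 2.21 to 3.27 and its adjusted p from 4.25e-12 to 0.469. Ccl5 had a log2 fold change of 2.23 ± 0.24 (edgeR adjusted p 0.00549; 2.94e-37 to 0.503 over alternatives), Gzma of 4.80 ± 0.55 (adjusted p 0.00549; 5.98e-26 to 0.243) and Xcl1, a chemokine that draws cross-presenting dendritic cells, of 3.02 ± 0.36 (adjusted p 0.00549; 1.43e-14 to 0.243), each in 3 of 3 libraries. Gzma was detected in few members, among them 3 of 51 in ND-WT and 4 of 37 in ND-DTR. Of 13 cytotoxic genes tested 9 were higher and none lower, with a median of 2.23 against 0.01 over all 5260 genes, of which 0.342% were higher and 0.209% lower (449 genes had an unadjusted p under 0.05).

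The genes lower in CD8 than in CD4 T cells included costimulatory receptors. Tnfrsf4, the OX40 receptor, averaged 43.9 against 394 CPM, a log2 fold change of -2.93 ± 0.39 (edgeR adjusted p 0.00759), lower in 3 of 3 libraries, with a range of -4.24 to -2.51 and adjusted p from 2.14e-35 to 0.243 over 11 alternatives. Icos, another costimulatory receptor, averaged 129.9 against 268 CPM (adjusted p 0.0323; 0.000226 to 0.321), and Rora, a nuclear receptor of type 17 and type 2 lymphocytes, -1.38 ± 0.17 (adjusted p 0.00549; 1.61e-08 to 0.243). Ramp3, a partner chain of peptide hormone receptors, had -1.70 ± 0.21 (adjusted p 0.00615; 4.37e-13 to 0.243), and these 3 genes were lower in 3 of 3 libraries. The main test also called the matrix genes Col1a1, Col3a1, Fbn1 and Sparc higher in CD8 T cells. Without the other-lineage barcodes Sparc was not called (edgeR adjusted p 0.806, log2 fold change 0.46), and the other matrix genes had too few UMIs to be tested.

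Without other-lineage barcodes and with all 4 libraries, 1.23% of 1945 genes were higher and 1.54% lower. This test used 18 CD4 T cells in ND-DTR and 17 in HFD-DTR, under the minimum of 20. Of the genes called in the main test, 8 of 18 higher and 7 of 11 lower were called here too, which is 33.3% and 23.3% of the 24 and 30 genes called here. Gzmk was at 1.68 ± 0.33 (edgeR adjusted p 0.000751), Ccl5 at 1.66 ± 0.18 (6.86e-09), Nkg7 at 1.98 ± 0.21 (2.31e-09) and Tnfrsf4 at -3.15 ± 0.31 (4.04e-10). Klrd1, the CD94 partner of NK receptors, was at 3.81 ± 0.60 (3.05e-05; 3.51e-06 to 0.016 over 6 alternatives). Il7r was at -0.81 ± 0.23 (0.0465; 0.0255 to 0.559) and S1pr1 at -1.33 ± 0.31 (0.00765; 0.000256 to 0.480), both lower in 4 of 4 libraries. Pdcd1 at 0.39 (adjusted p 0.672), Tox at 0.93 (0.141) and Ifi27l2a at -0.68 (0.0738) did not pass. Of 8 cytotoxic genes tested 7 were higher, with a median of 1.99 against 0.02 over all genes. Gzma, Gzmb and Ccl3, called in the main test, were not among the 7. Only 8 of the 15 genes of the list passed the low-count filter here, so most of these genes were not tested.

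Against NK cells the contrast was wide and the granzymes divided. In the 4 libraries without other-lineage barcodes, Gzmk stood at 52.9, 253, 302 and 367 CPM in CD8 T cells and at 2.03, 1.22, 1.79 and 4.70 in NK cells, a log2 fold change of 6.70 ± 0.36 (edgeR adjusted p 1.2e-10; 6.39 to 6.97 over 6 alternatives, adjusted p 1.87e-19 to 3.32e-07), higher in 4 of 4 libraries. Gzma went the other way, at -4.92 ± 0.50 (adjusted p 3.29e-07), as did Prf1 at -3.52 ± 0.24 (1.39e-09), both in 4 of 4 libraries. Ccl5 did not pass, at 0.28 (adjusted p 0.577). Of 13 cytotoxic genes tested Gzmk alone was higher and 8 were lower, where 4.8% of 5229 genes were higher and 5.22% lower. With all cells of the gates 1 was higher and 10 lower, where 5.68% of 6166 genes were higher and 4.05% lower.

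Genes of the T cell lineage were higher in CD8 T cells than in NK cells. The gates required Cd3 UMIs in members, none in NK cells, and UMIs of Ncr1 and Klrb1c in NK cells. Differences in other T cell receptor and NK receptor genes thus follow largely from the gates, and they describe the groups. Pdcd1 averaged 268 against 3.31 CPM (6.39 ± 0.40, edgeR adjusted p 4.09e-10), Ccr7 averaged 253 against 11.1 (adjusted p 2.81e-08) and Il7r 231 against 21.3 (adjusted p 1.88e-09), each higher in 4 of 4 libraries. Cd5, an inhibitory coreceptor of T cells, and Themis, a T cell signalling protein, had no UMI in NK cells of any library. Of 17 T cell receptor and costimulation genes 13 were higher and 1 lower, and of 10 NK-type receptors none was higher and 9 were lower. Over all 5229 genes of this test, 4.8% were higher and 5.22% lower, which also applies to the lists below. Tyrobp, the adaptor of activating NK receptors, averaged 64.1 against 2850 (-5.69 ± 0.37, adjusted p 7.04e-10). Of 21 interferon genes tested 6 were higher and none lower, among them Ifi27l2a, which averaged 533 against 25.3 (4.79 ± 0.31, adjusted p 7.04e-10). Of 11 cytokine receptor genes 3 were higher (Il7r, Il21r and Tgfbr2) and 5 lower (Il2rb, Il12rb2, Il18r1, Il18rap and Ifngr1). Of 11 naive genes 7 were higher and 2 lower. With all cells of the gates, 8 of 17 T cell receptor and costimulation genes were higher and 1 lower. All 10 NK-type receptors tested were then lower, and 5 of 27 interferon genes were higher and none lower. Of 12 cytokine receptor genes 2 were higher and 5 lower, and of 11 naive genes 6 and 2. Of all 6166 genes there, 5.68% were higher and 4.05% lower.

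**Figure D5:**
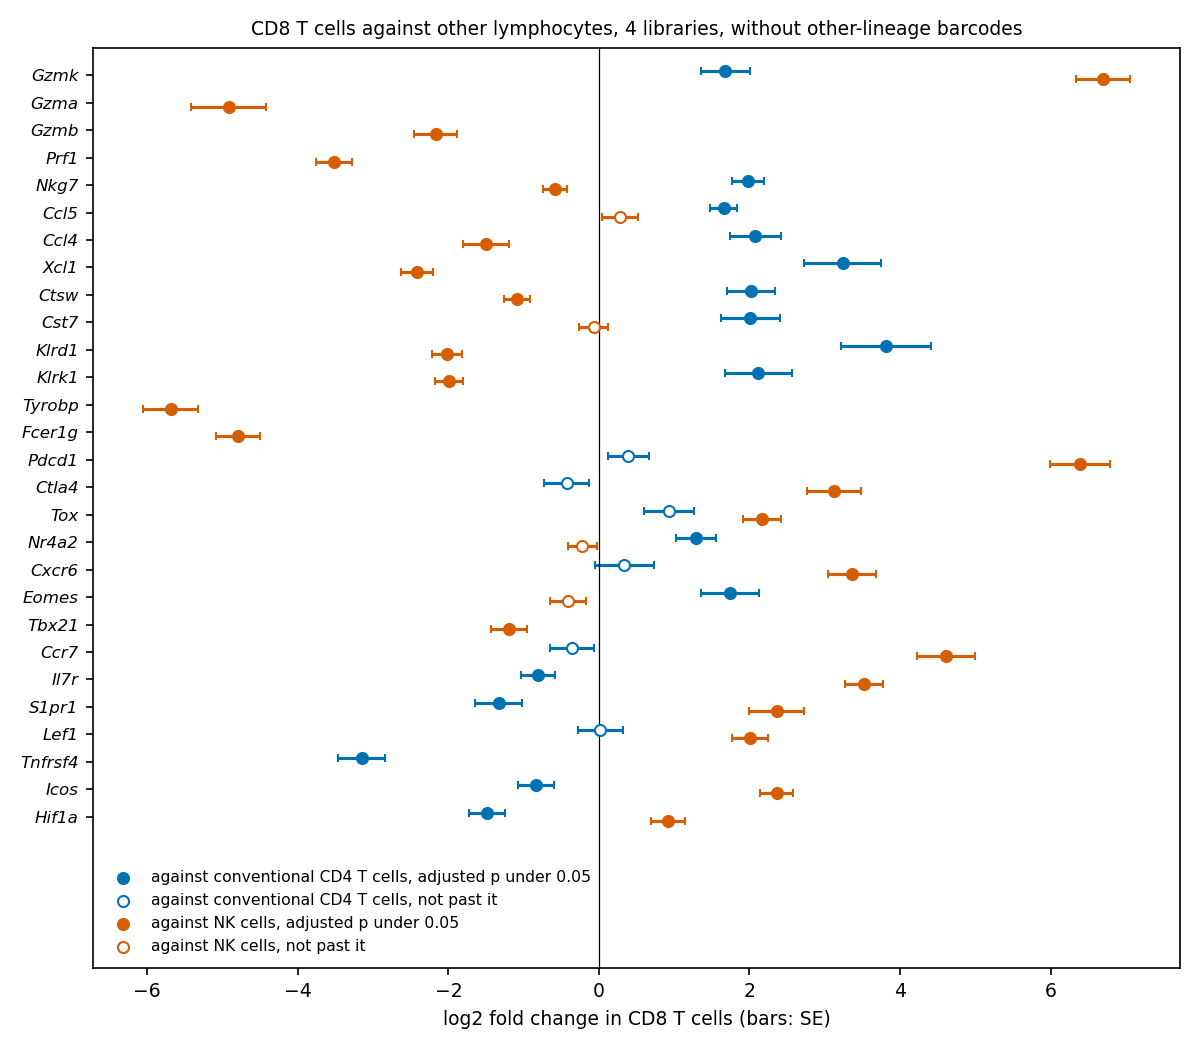
Log2 fold change ± SE of 28 genes in CD8 T cells against conventional CD4 T cells and against NK cells, from edgeR over 4 libraries without other-lineage barcodes; filled points have an adjusted p under 0.05. Gzmk is higher in CD8 T cells in both contrasts (1.68 and 6.70), while Gzma and Prf1 are lower than in NK cells.

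Receptor variable genes were sparse. A Trav gene was detected in 21 of 183 HFD-WT members (11.5%), and Trav15-2-dv6-2 in 9 of them. In the other libraries no Trav gene was detected in more than 2 members without other-lineage transcripts. A Trbv gene was detected in 3 of 27, 0 of 32, 10 of 183 and 2 of 62 members, and the 0 of 32 allows a share of up to 9.38% with the same floor of 3 cells. Variable genes share sequence, and 3′ libraries read few of them.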

How the data were processed

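The deposited matrix holds UMI counts per gene and barcode for the 4 libraries, made by the authors with Cell Ranger 3.1.0 on mm10, per the file headers and the submitters' processing notes. Whether reads were subsampled to equal depth is not stated there, and no column of another sample was present (0). The number at a barcode's end was matched to the order of libraries in the deposited aggregation list, the one file that bears on it.

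Members and lists were chosen with earlier results of these data known. Barcodes with under 300 genes or over 10% mitochondrial UMIs were removed. Doublets were called with Scrublet in scanpy 1.11.5 (expected rate 5.4%) and kept in the main values. Members' counts were summed per library. With 1 library a group, log2 ratios carry exact binomial 95% intervals, shares Clopper-Pearson intervals and sums Poisson intervals, all for counting error only (scipy 1.17.1), and genes needed 50 UMIs over the 2 libraries to be counted. For shares per cell, cells were thinned to 1500 UMIs. Other-lineage barcodes had at least 20 UMIs of antigen-presenting cell genes, 10 of fibroblast, 3 of B cell, 5 of plasma cell or 3 of endothelial genes.

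Cell types were compared with edgeR 4.0.16 (quasi-likelihood test, TMM, library as block, Benjamini-Hochberg adjustment over all genes tested, threshold 0.05) in R 4.3.3, tested on simulated data, with DESeq2 1.42.0 as an alternative. CD4 T cells had a Cd4 UMI and no CD8 UMI; NK cells had at least 2 UMIs of Ncr1 and Klrb1c and no Cd3 UMI. Genes of the gates were left out, also from the totals behind CPM in the tests, and the design planned all 4 libraries with at least 20 cells each, which HFD-DTR missed for CD4 T cells.

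Named genes were those of 14 fixed lists past 2-fold with an interval off 0, up to 4 a list, the 5 highest and 5 lowest ratios, and in tests the 10 highest and lowest fold changes and up to 4 genes a list. Gzmk and the markers were given throughout. Genes named beyond this rule, such as Lef1, Itgae, Havcr2, Bst2, Ifit3, Rtp4, Col3a1 and Fbn1, the members of lists whose calls are counted in 5 or fewer genes and, for each comparison, genes carried over from another one, were chosen after their values were seen. The alternatives were other cell filters, gates, UMI minimums, scalings, tools and left-out libraries. Promoters came from RefSeq (GRCm38.p6) and gene positions from the GRCm38 annotation. A few planned values are not reported here.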

Additional observations from a re-analysis of the deposited data

Results flagged for a closer look

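In each case here a gene differed in opposite directions in the 2 diets or under the 2 labels, each time by more than 2-fold with counting intervals that do not meet. With 1 library a group the difference between the ratios was not tested. Over all members, the log2 ratio of the DTR over the WT label was -2.35 (-3.22 to -1.59) in the normal diet and 1.24 (0.94 to 1.53) in the high fat diet for Egr1, -1.80 (-2.47 to -1.20) and 1.16 (0.95 to 1.37) for Fos, and -2.20 (-2.92 to -1.55) and 1.19 (0.96 to 1.42) for Jun, 3 genes of the immediate early response. Among the 304 members without other-lineage transcripts the ratios were 0.82 and 0.66 for Egr1, 0.06 and -0.22 for Fos, and -0.62 and 0.56 for Jun. None of these reached 2-fold.

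Gzmb, the granzyme that activates caspases, differed with diet in opposite directions under the labels. Its log2 ratio of high fat over normal diet was 1.29 (0.52 to 2.15) under WT and -1.77 (-2.84 to -0.81) under DTR over all members, and 1.78 and -1.71 among the 304. Hmgb2, a chromatin protein abundant in dividing cells, had diet ratios of 1.41 (0.87 to 1.99) and -1.25 (-1.75 to -0.77) among the 304, and Tubb5, a tubulin, of 1.15 (0.60 to 1.75) and -1.16 (-1.67 to -0.67). Without the ND-DTR member of 43283 UMIs, the ratios under DTR were 0.11 for Hmgb2 and 0.16 for Tubb5.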

How the results depend on the processing

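Of the recomputed counts and shares, 98 stayed within 1.5 times or 1 interval of the reported value. The others went beyond that: 38 counts and shares between libraries, and, of the counts called in tests, 15 that were smaller and 7 that were larger. The cause was not tested for the others, except where an alternative tests fewer or more genes by its construction. The share of CD8 T cells in ND-WT was 6.56% after thinning before the gate and 9.75% without other-lineage barcodes. In HFD-WT it was 42.3% with 500 genes and at most 5% mitochondrial UMIs and 33.0% with 2 Cd8 UMIs, which gave 14.9% in HFD-DTR.

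Counts of genes 2-fold higher and lower changed with the UMI minimum, which sets the genes that enter, with the other-lineage barcodes and with the largest member. DTR over WT in the normal diet gave 280 and 370 at 25 UMIs, 32 and 68 at 100, 51 and 12 without other-lineage barcodes, 21 and 4 also without the largest member, and 49 higher with TMM. In the high fat diet it gave 470 and 534 at 25 UMIs, 71 and 120 at 100, 25 and 95 without other-lineage barcodes and the same without the largest member, and 103 higher with TMM. High fat over normal diet under WT gave 617 and 168 at 25 UMIs, 119 and 28 at 100, 29 lower without other-lineage barcodes, with or without the largest member, and 272 lower with every cell scaled equally. Under DTR it gave 258 and 144 at 25 UMIs, 42 and 16 at 100, 11 higher without other-lineage barcodes, 7 and 11 also without the largest member, and 66 higher with 2 Cd8 UMIs.

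Against CD4 T cells, 18 genes were higher and 11 lower by edgeR's test. The counts were 11 and 5 without Scrublet calls, 10 and 2 with all 4 libraries, 10 and 4 with DESeq2, 83 and 97 without the low-count filter, 3 lower at 500 genes, 36 lower without other-lineage barcodes and 30 lower with all 4 libraries without them. Leaving out each library gave 11 to 25 higher and 8 to 32 lower, with 11 higher without ND-WT and 25 and 32 without HFD-WT. Against NK cells, 350 were higher and 250 lower. The counts were 704 and 451 without the low-count filter, and leaving out each library gave 142 to 456 higher and 123 to 252 lower, with 212 and 163 without ND-WT and 142 and 123 without HFD-WT. With no replicate block (the library as block pairs both cell types of a library) the counts were 0 and 0 against CD4 T cells, where 255 genes had an unadjusted p under 0.05, and 187 and 172 against NK cells. No paired analysis was possible between conditions because each has 1 library. The planned test of Gzmk-detected against naive-gene-detected cells, with its alternatives, was not run, for under 20 cells in some libraries.

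Among genes and list medians past 2-fold, or past the threshold in a test, the sign reversed in 22 recomputed gene values and 3 medians. Medians under 2-fold could also change sign: the all-member checkpoint median of DTR over WT in the normal diet was -0.21 in the sums and 0.34 with every cell scaled equally. In DTR over WT in the normal diet, without other-lineage barcodes and then also without the largest member, Fos was at 0.06 and 0.39, Egr1 at 0.82 and 1.20, Ccl4 at 0.03 and 0.52 and Igkc at 0.43 and 0.86, and the median of fate transcription factors was 0.14 at 25 UMIs and 0.22 without other-lineage barcodes, from 1 gene against 4 in the reported median. In the high fat diet Igkc was at 0.11 in both. In the diet ratio under WT Igha was at -2.22 in both. In the diet ratio under DTR, Jun was at -0.04 and Fos at -0.17 without the largest member, Egr1 at -0.14 and -0.52, Cd74 at 1.46 and 1.29, Hmgb2 at 0.11, Rrm2 at 3.50 without the largest member and 0.09 with every cell scaled equally, and the median of immediate early genes at -0.24. Zeb2 against NK cells was at -0.46 without other-lineage barcodes. Depth limits these results: 27 to 183 members a library give wide counting intervals, and genes under 50 UMIs could not be counted.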
